A study of Mus musculus with 4 samples.

Results

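The 8 CC chemokines Ccl2, Ccl7, Ccl12, Ccl8, Ccl11, Ccl24, Ccl6 and Ccl9 and the 2 receptors Ccr2 and Ccr3 were followed through the cell types of mouse back skin. They were taken by name, as 10 of 31017 gene symbols measured, and read in every class of cells that marker genes define. The skin came from BALB/c mice and was profiled in 4 libraries of single-cell 3′ transcripts (10x v3.1 kit). The Cd226-/- DMBA/TPA library came from mice without the gene of the activating receptor CD226 (DNAM-1), and the WT DMBA/TPA library from wild-type mice. Both sets of mice had 25 µg of the carcinogen DMBA on shaved skin and, from a week later, 3 weekly doses of the tumor promoter TPA (5 µg). Each of these libraries holds cells of 3 mice, sorted as CD45+ and CD45- and mixed 1:1. Skin of naive mice gave 2 libraries, one of CD45+ and one of CD45- cells, each a 1:1 pool of WT and Cd226-/- cells. Naive skin of a single genotype was not analysed here, so treatment and genotype are not crossed.

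CC chemokines bind receptors on leukocytes and guide them into tissue. CCL2, CCL7 and CCL12 are ligands of CCR2, the receptor that brings inflammatory monocytes out of bone marrow and blood. CCL11 and CCL24 are eotaxins, ligands of CCR3, the receptor of eosinophils. CCL8 in the mouse acts mainly through CCR8, and CCL6 and CCL9 are rodent chemokines that act through CCR1. In inflamed skin both stromal cells and phagocytes can make such ligands.

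The genes lie in a few blocks of the genome (GRCm38, GENCODE vM21). Ccl2, Ccl7, Ccl11, Ccl12 and Ccl8 stand in this order on the plus strand of chromosome 11, within 81.2 kb from 82035571 to 82116799. Ccl9 and Ccl6 lie further along on the minus strand, within 20.2 kb from 83572919 to 83593087. Ccr3 and Ccr2 share 91.6 kb of chromosome 9 (124021972 to 124113557), and Ccl24 lies alone on chromosome 5 (135569937 to 135573049, minus strand). All 10 are protein-coding.

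RefSeq promoter windows were at hand for 6 of the 10 genes (Ccl12, Ccl8, Ccl6, Ccl9, Ccr2 and Ccr3). The windows of 2 pairs of neighbouring genes are shown, because the members of each pair share a source below. For Ccl12 and Ccl8 it is macrophages, and for Ccl6 and Ccl9 macrophages and monocytes. In naive skin Ccl12 was higher in monocytes than in macrophages. Each is the 250 bases before the transcription start, 5′ to 3′ on the gene's own strand, and capitals mark matches to the motifs named below.
Ccl12: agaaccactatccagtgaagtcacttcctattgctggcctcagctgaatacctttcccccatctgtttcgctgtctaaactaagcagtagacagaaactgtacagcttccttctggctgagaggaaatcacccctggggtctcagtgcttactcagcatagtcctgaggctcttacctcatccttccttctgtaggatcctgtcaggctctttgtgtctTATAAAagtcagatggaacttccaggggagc
Ccl8: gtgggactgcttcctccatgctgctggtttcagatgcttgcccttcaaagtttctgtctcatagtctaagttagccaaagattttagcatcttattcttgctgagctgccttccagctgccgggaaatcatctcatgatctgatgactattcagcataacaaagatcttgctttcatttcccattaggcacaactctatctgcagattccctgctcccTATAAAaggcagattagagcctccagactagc
Ccl6: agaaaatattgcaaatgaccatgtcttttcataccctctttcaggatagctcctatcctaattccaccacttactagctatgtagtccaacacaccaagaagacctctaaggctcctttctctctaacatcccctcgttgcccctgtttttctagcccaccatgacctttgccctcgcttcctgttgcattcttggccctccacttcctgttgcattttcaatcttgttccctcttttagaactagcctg
Ccl9: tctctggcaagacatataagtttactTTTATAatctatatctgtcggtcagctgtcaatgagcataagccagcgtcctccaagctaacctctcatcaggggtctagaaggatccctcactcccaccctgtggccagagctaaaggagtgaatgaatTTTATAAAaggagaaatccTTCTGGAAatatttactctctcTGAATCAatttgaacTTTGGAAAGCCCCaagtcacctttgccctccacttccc
In genome coordinates the Ccl12 window is chr11:82101595-82101844 (plus strand) and the Ccl8 window chr11:82114935-82115184 (plus strand). The Ccl6 window is chr11:83593088-83593337 and the Ccl9 window chr11:83578637-83578886 (both minus strand).

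The motifs were searched on both strands in these windows with 50 bases after the start added. The TATA box letters TATAAA, found in 13.6% of 32851 such windows, began at position -31 from the start in Ccl12 and at -32 in Ccl8. They also matched in Ccl9, at -92 and on the other strand at -94 and -224. The AP-1 letters TGANTCA (7.81% of windows) matched in Ccl9 at -53 and in Ccr3. A loose NF-kappaB pattern, GGG and CC with any 5 bases between, is in 50.8% of windows and matched in Ccl9 at -35, where it overlaps a match to the C/EBP letters TTNNGNAA (40.7% of windows), and in Ccr3. C/EBP letters also matched in Ccl9 at -75, in Ccr2 and in Ccr3. The STAT6 pattern, TTC and GAA with any 4 bases between (6.95%), matched in none of the 6 windows, and the Ccl6 window held none of the motifs named here. A match describes letters only, and it was not tested whether a factor binds there.

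Filters kept 6521 Cd226-/-, 7022 WT, 3494 naive CD45+ and 10597 naive CD45- cells, at 6552 to 9073 UMIs (unique transcript counts) in the median cell. Pairs of libraries shared 9 to 21 cell barcodes. Every class name stands for a class of cells that resembles that type by its markers. Fibroblasts numbered 2760 in Cd226-/-, 4048 in WT and 10162 among naive CD45- cells, and macrophages 377, 324 and 1626 (naive CD45+). Monocytes numbered 1106, 450 and 440 (naive CD45+). Each class held all 6 of its defining markers. Fibroblasts also held all 6 macrophage and all 6 monocyte markers, at lower summed levels, so presence alone does not set the classes apart. A level is the UMIs of a gene per 1000000 UMIs of the class (CPM), which in 3′ data does not depend on transcript length. Because there is 1 library per group, no difference has a replicate check and none is tested. Intervals in parentheses are exact 95% intervals of counting error only. A ratio is called higher or lower past 1.5-fold, among genes with at least 50 UMIs over both groups.

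The targeted gene was read as a check of the labels. Lymphocytes held 57 Cd226 UMIs in 43 of 772 Cd226-/- cells, 123 in 96 of 496 WT cells and 15 in 11 of 288 cells of the naive CD45+ library, which is 12.2, 41.8 and 6.99 CPM. Fibroblasts held 1, 3 and 0 (naive CD45-). UMIs of a 3′ library can come from a part of a gene that a deletion leaves, so these counts do not check the genotype label.

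**Figure D1:**
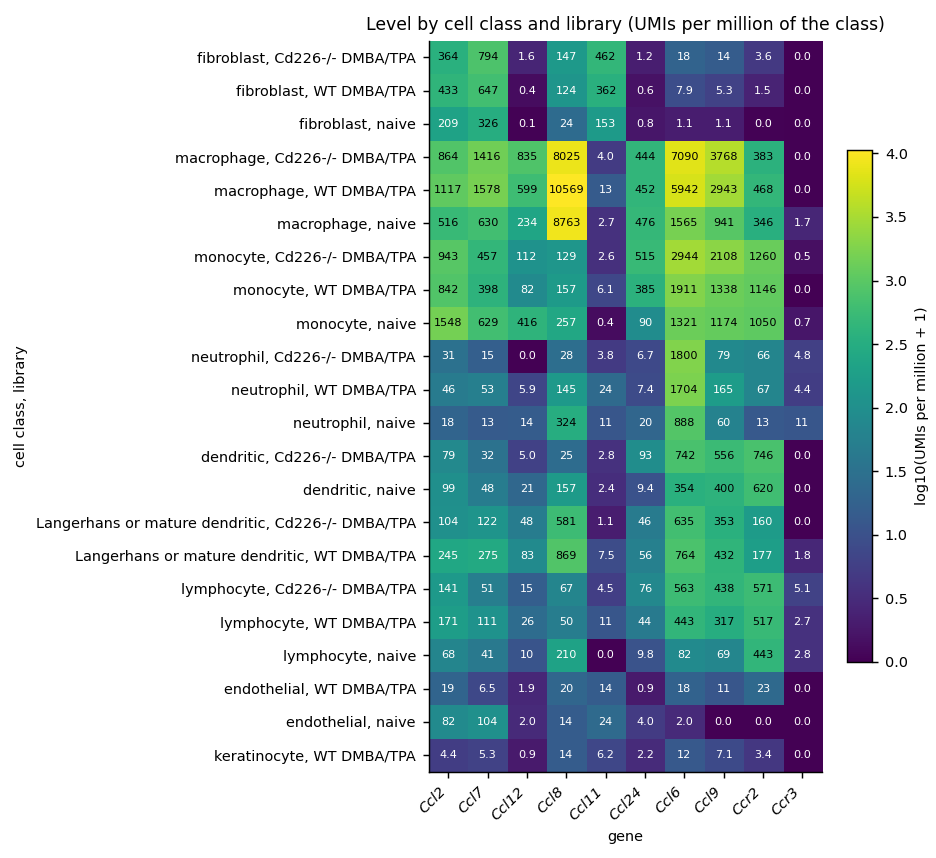
Levels of the 10 genes (columns) in each class and library with at least 100 cells (rows), in CPM on a log colour scale, with the number printed in each cell. Ccl11 is high in the fibroblast rows alone, Ccl8 peaks in the macrophage rows, and Ccr3 is near 0 throughout.

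Fibroblasts and macrophages were compared as sources of the same ligands within the same skin; naive fibroblasts are those of the CD45- library and naive macrophages those of the CD45+ library. Ccl11 was the only member above macrophages in fibroblasts, and the other 8 measured members were lower there. Of all genes, 32.3% in Cd226-/-, 30.2% in WT and 29.1% in naive skin were at least 1.5-fold higher in fibroblasts, and 23.8%, 24% and 35.8% lower, against 1 and 8 of 9 members in each. For the members the median log2 ratio came to -6.71 in Cd226-/-, -8.26 in WT and -9.26 in naive skin, beside 0.10, 0.06 and -0.21 for all genes. A TMM scaling subtracts its shift from the log2 ratio. The shifts were -0.12, -0.13 and -0.34, so these ratios would rise by that much.

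Ccl2 and Ccl7, both CCR2 ligands, were made by both classes. Ccl2 stood in fibroblasts at 364 (358–370) CPM in Cd226-/-, 433 (427–439) in WT and 209 (206–213) in naive skin. In macrophages it was 864 (830–900), 1117 (1071–1165) and 517 (506–527) CPM. The fibroblast level was thus 0.421 (0.403–0.440), 0.387 (0.371–0.405) and 0.405 (0.395–0.416) of the macrophage level, close to each other in the 3 skins. Ccl7 stood at 794 (785–803), 647 (639–654) and 326 (322–330) CPM in fibroblasts. Its macrophage levels were 1416 (1372–1461), 1578 (1522–1634) and 630.1 (619–642) CPM, so that fibroblasts held 0.561, 0.410 and 0.517 of them.

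Per library the order turned, since fibroblasts were many. Fibroblasts held 48.9% of all Ccl2 UMIs of the Cd226-/- library and 73.8% of those of the WT library, and 72.3% and 81.9% of the Ccl7 UMIs. Macrophages held 8.72% and 8.26% of the Ccl2 UMIs and monocytes 28.0% and 9.34%. These shares depend on how sorted cells were mixed and are no property of the skin.

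Between these 2 classes, Ccl12 and Ccl8 were macrophage genes. Ccl12, another CCR2 ligand, stood at 1.57 (1.19–2.02) CPM in Cd226-/- fibroblasts, at 0.355 (0.203–0.577) in WT and at 0.0705 (0.0229–0.165) in naive ones. Macrophages held 835 (801–870), 599 (565–634) and 234 (227–241) CPM of it. Naive monocytes held more than naive macrophages, 416 CPM, while Cd226-/- and WT monocytes held less than their macrophages, 112 and 81.9 CPM. Ccl8 was the most abundant member of macrophages, with 8025 (7920–8131), 10569 (10426–10715) and 8763 (8721–8806) CPM in Cd226-/-, WT and naive skin. Fibroblasts had a lower but measurable Ccl8 level of 147 (143–151), 124 (121–127) and 24.4 (23.2–25.6) CPM.

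The CCR3 ligands split by source. Ccl11 (eotaxin-1) stood at 462 (455–469) CPM in Cd226-/- fibroblasts, 362 (357–368) in WT and 153 (150–156) in naive fibroblasts. In macrophages it was 3.96 (1.97–7.08), 13.3 (8.70–19.5) and 2.72 (2.02–3.59) CPM, which makes the fibroblast level 117-fold (65.2–234), 27.2-fold (18.6–41.7) and 56.2-fold (42.6–75.8) higher. Fibroblasts held 98.1%, 98.4% and 99.5% of all Ccl11 UMIs of the Cd226-/-, WT and naive CD45- libraries. With each cell thinned to 1000 UMIs, a Ccl11 UMI was found in 32.6%, 28.5% and 13.8% of fibroblasts and in 0.531%, 0.926% and 0.123% of macrophages. Without thinning these shares were 75.8%, 69.9% and 34.5% in fibroblasts, at median depths of 12616, 10124 and 6625 UMIs, and 2.39%, 2.78% and 0.431% in macrophages, at 6045, 4825 and 9545 UMIs.

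Ccl24 (eotaxin-2) was instead a gene of phagocytes. Its macrophage level was 444 (420–470), 452 (423–483) and 476 (466–486) CPM in Cd226-/-, WT and naive skin. Monocytes reached 515 (499–531) and 385 (363–408) CPM after treatment and 89.6 (81.9–97.9) in naive skin. Fibroblasts lay at 1.21, 0.599 and 0.776 CPM.

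Ccl6 and Ccl9 were found in most macrophages and monocytes. In macrophages Ccl6 stood at 7090 (6992–7190) CPM in Cd226-/-, 5942 (5834–6051) in WT and 1565 (1547–1583) in naive skin. Ccl9 was 3768 (3696–3841), 2943 (2867–3020) and 941 (927–955) CPM. Monocytes held 2944, 1911 and 1321 CPM of Ccl6 and 2108, 1338 and 1174 CPM of Ccl9. Neutrophils held Ccl6, with 1800 (1719–1883), 1704 (1607–1805) and 888 (844–935) CPM, but little Ccl9, with 79.4, 165 and 60.1 CPM.

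Among the receptors, Ccr2 was highest in monocytes, at 1260 (1236–1285) CPM in Cd226-/-, 1146 (1108–1186) in WT and 1050 (1023–1078) in naive skin. A Ccr2 UMI was seen in 97.6%, 96.0% and 97.1% of monocytes. Next came dendritic cells with 746 (707–788) CPM in Cd226-/- and 620 (595–645) in naive skin (88 WT dendritic cells were too few), and lymphocytes with 571 (549–593), 517 (492–544) and 443 (415–472) CPM. The macrophage level was 383 (360–406), 469 (439–500) and 346 (338–355) CPM. The intervals of lymphocytes and macrophages overlap in WT skin, and those of the other pairs of these classes do not overlap within a skin.

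Ccr3, the receptor of the eotaxins, was scarce: 34 UMIs in the Cd226-/- library, 20 in WT, 64 in naive CD45+ and 0 in naive CD45-. Its highest level was 10.7 (6.35–16.9) CPM in naive neutrophils, from 18 UMIs in 14 cells, beside 4.78 and 4.45 CPM in Cd226-/- and WT neutrophils. Fibroblasts of the Cd226-/-, WT and naive CD45- libraries held no Ccr3 UMI, which allows up to 0.0810, 0.0666 and 0.0423 CPM. Eosinophil markers led no class. Epx, an eosinophil granule gene, had no UMI in any library, and Ear2 had 832 in the Cd226-/- library, 473 in WT, and 1707 and 18 among the naive CD45+ and CD45- cells. Cells with 3 eosinophil markers were counted in mast cells, neutrophils and the classes with a Ccr3 UMI in the library. There they numbered 2, both naive macrophages. Classes without a Ccr3 UMI, treated macrophages among them, were not counted. No cell with Ccr3 held 2 of the other markers.

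**Figure D2:**
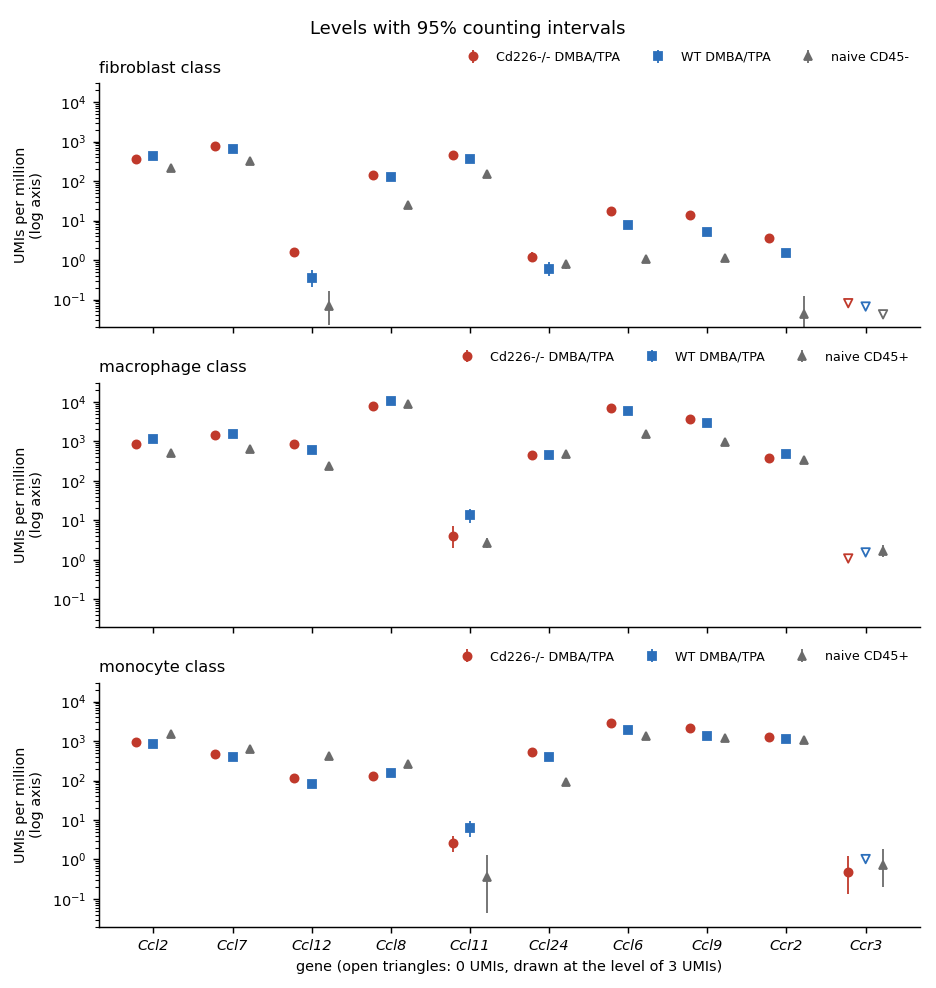
Level of each member, in CPM on a log axis, in fibroblasts, macrophages and monocytes of Cd226-/-, WT and naive skin, with exact 95% intervals of counting error, the lowest of which leave the axis. Open triangles mark 0 UMIs. Ccl11 reaches 462, 362 and 153 in fibroblasts and at most 13.3 in the other panels, while Ccl12, Ccl24, Ccl6 and Ccl9 are near or below 17.9 in fibroblasts.

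Free RNA in droplets can give a class UMIs that its cells did not make, and empty droplets were not used here. As a measured guide, the level of a gene expected from free RNA was taken as its level in the source class times the ratio of that class's 6 markers between the receiving and the source class. The macrophage markers summed to 26.6, 17.7 and 6.997 CPM in Cd226-/-, WT and naive fibroblasts, with none of the 6 at 0. Against macrophages and monocytes as the source, fibroblast Ccl2 was 80.1, 185 and 2324 times the expected level and Ccl7 230, 302 and 2051 times. Fibroblast Ccl8 was 14.0, 11.7 and 6.82 times the expected level, so it stood above this measure in all 3 skins. For naive fibroblasts the source was 87 macrophages and monocytes of the same naive CD45- library, under the 100 cells that a class otherwise needed.

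The remaining members did not stand apart from it. Observed over expected in Cd226-/- and WT fibroblasts was 1.08 and 0.4998 for Ccl12, 0.496 and 0.591 for Ccl24, 0.912 and 0.914 for Ccl6, 1.11 and 1.08 for Ccl9, and 0.713 and 0.711 for Ccr2. With macrophages alone as the source the values were 1.17 and 0.528 for Ccl12, 1.70 and 1.18 for Ccl24, 1.57 and 1.19 for Ccl6, 2.28 and 1.59 for Ccl9 and 5.92 and 2.91 for Ccr2. Levels near the expected one cannot be told apart from free RNA by this measure. Ccl9 in a small sub-cluster is given below. In the other direction, the fibroblast markers summed to 512, 1643 and 160 CPM in macrophages of Cd226-/-, WT and naive skin. Macrophage Ccl11 was 0.873 and 1.51 times the level expected from fibroblasts in Cd226-/- and WT, and 2.79 times in naive skin, where it rests on 50 UMIs. The source for that naive value was the 162 fibroblasts of the same naive CD45+ library.

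**Figure D3:**
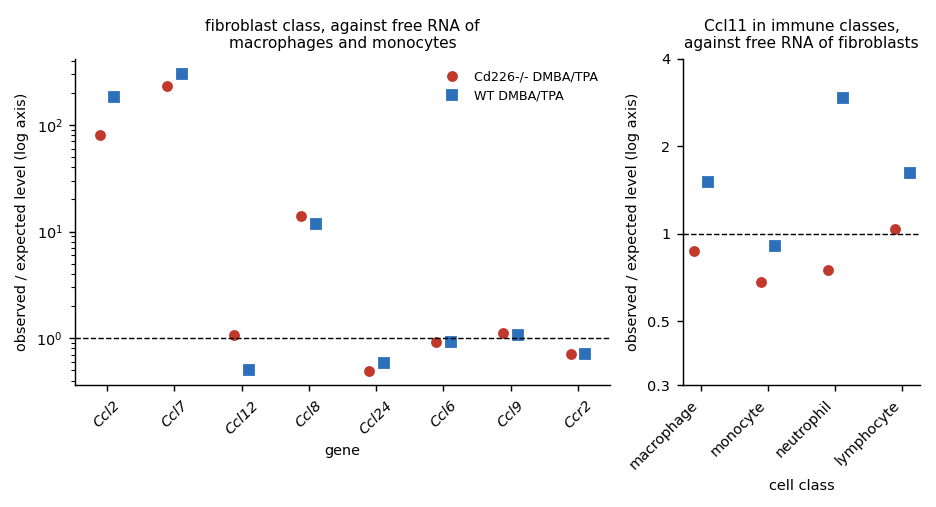
Observed level over the level expected from free RNA, on a log axis with a line at 1: members in fibroblasts against macrophages and monocytes as the source (left) and Ccl11 in other classes against fibroblasts (right), in Cd226-/- and WT skin. Ccl2, Ccl7 and Ccl8 lie above 1 in fibroblasts of both, whereas Ccl12, Ccl24, Ccl6, Ccl9 and Ccr2 lie between 0.496 and 1.11.

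Treated fibroblasts held more Ccl2, Ccl7, Ccl8 and Ccl11 than the fibroblasts of the naive CD45- library. Ccl8 was 6.02-fold (5.70–6.35) higher in Cd226-/- and 5.08-fold (4.81–5.37) higher in WT than in naive fibroblasts. Ccl11 was 3.02-fold (2.95–3.09) and 2.37-fold (2.31–2.43) higher, Ccl7 2.44-fold (2.40–2.48) and 1.99-fold (1.95–2.02), and Ccl2 1.74-fold (1.70–1.78) and 2.07-fold (2.02–2.11). The share of thinned fibroblasts with a Ccl8 UMI was 11.1% (9.94–12.3) in Cd226-/- and 10.5% (9.60–11.5) in WT, against 2.54% (2.24–2.86) in naive skin.

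The contrast depends on which naive library is used. The naive CD45+ library also held 162 fibroblasts, which stood at 239 (220–259) CPM of Ccl2, 410.4 (386–436) of Ccl7, 218 (200–237) of Ccl8 and 479 (453–507) of Ccl11. Their Ccl8 and Ccl11 levels lay above or level with those of treated fibroblasts, while treated Ccl2 and Ccl7 levels lay above theirs. Macrophage markers summed to 48.3 CPM in them, Ccl8 was 7.17 times the level expected from macrophages and monocytes, and their median depth was 15326 UMIs. Sub-cluster 10 held 29.0% of them and sub-clusters 2 and 3, common in treated skin, 15.4% each. Apart from their use as a source of free RNA, they are left out of the naive fibroblast values given elsewhere.

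Over all members, 9 of 9 measured in Cd226-/- and 7 of 8 in WT were higher than in naive fibroblasts and 0 were lower. Of all genes 23.6% and 19.5% were higher, and 14.8% and 12.3% lower. The members' median log2 ratio was 2.59 and 1.75, beside 0.17 and 0.18 for all genes. A TMM scaling, with a shift of 0.21, would lower the log2 ratios of either comparison by that much. The members near the level expected from free RNA belong to these counts. Macrophages and monocytes, their sources, made up 5.78% and 17.0% of the Cd226-/- library, 4.61% and 6.41% of the WT library, and 0.812% and 0.00944% of the naive CD45- library. Ccl24, the 1 member of WT that was not higher, stood at 0.599 CPM in WT and 0.776 in naive fibroblasts. Treated and naive fibroblasts also fell into different sub-clusters, given below. In fibroblasts the summed level of 18 genes of dissociation stress stood at 16565 (Cd226-/-), 19922 (WT) and 24647 CPM (naive), and its part in these differences was not tested.

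In macrophages the treated libraries were higher for some ligands and level for others. Ccl6 was 4.53-fold (4.45–4.61) higher in Cd226-/- and 3.80-fold (3.72–3.88) in WT than in naive macrophages, and Ccl9 4.00-fold (3.91–4.10) and 3.13-fold (3.03–3.22). Ccl12 was 3.57-fold (3.39–3.76) and 2.56-fold (2.40–2.73) higher, Ccl7 2.25-fold and 2.50-fold, and Ccl2 1.67-fold and 2.16-fold. Ccl8 at 0.916 (0.903–0.929) and 1.21 (1.19–1.22) times, Ccl24 at 0.935 and 0.951 times and Ccr2 at 1.104 and 1.35 times the naive level stayed within 1.5-fold.

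That makes 5 of 9 members higher in Cd226-/- and 6 of 9 in WT, where 9.92% and 8.06% of all genes were higher, and 0 lower, where 16.7% and 14.7% of all genes were lower. The sixth in WT was Ccl11 at 13.3 CPM, against 2.72 CPM in naive macrophages, 1.51 times the level expected from fibroblast RNA. The median log2 ratio of the members was 0.74 and 1.32, beside -0.04 and -0.05 for all genes. Different sub-clusters hold the macrophages of the groups. Sub-cluster 3, led by hemoglobin genes, Lyve1 and Cd163, held 67.6% of Cd226-/- and 75.6% of WT macrophages, while sub-cluster 5 (Pla2g2d, Selenop, Igf1) held 56.3% and sub-cluster 6 (Gpnmb, Trem2) 31.7% of naive ones.

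Monocytes differed from both. Ccl24 was 5.74-fold (5.23–6.32) higher in Cd226-/- and 4.30-fold (3.86–4.79) higher in WT than in naive monocytes. Ccl6 was 2.23-fold (2.17–2.29) and 1.45-fold (1.397–1.499) and Ccl9 1.80-fold (1.75–1.85) and 1.14-fold (1.095–1.186) the naive level. Ccl2, at 943 (922–964) and 842 (809–875) CPM in treated and 1548 (1515–1581) CPM in naive monocytes, was lower, and so was Ccl12, at 112, 81.9 and 416 CPM.

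In counts, 3 of 8 members were higher in Cd226-/- and 1 of 8 in WT (8.4% and 7.69% of all genes), and 3 and 4 were lower (11.1% and 11.4%). The lower levels depend on which monocytes the naive library held. Of 440 naive monocytes 66.1% lay in sub-cluster 2, led by the interferon-induced genes Rsad2, Cxcl10, Ifit2 and Isg15, against 0.271% of Cd226-/- and 1.56% of WT monocytes. Without the naive cells of that sub-cluster, a choice made after seeing the data, naive Ccl2 was 617 CPM and Ccl12 64.2 CPM. Then 6 of 8 members in Cd226-/- and 2 of 8 in WT were higher and 0 lower, with Ccl24 4.67-fold (4.05–5.41) and 3.50-fold (3.01–4.08) higher. The share of all genes was not computed for these cells, so it is open whether these counts are unusual. When the libraries were clustered separately, 0 of 8 members in Cd226-/- and 1 of 8 in WT were higher. The log2 ratio of Ccl24 was then 0.52 in Cd226-/- and 1.51 in WT, against 2.52 and 2.10 with the libraries clustered together. In that setting 376 Cd226-/- cells were named monocytes, and a Cd226-/- cluster of 712 cells led by Ccl24, Msr1 and Tgfbi stayed unnamed. So did a naive cluster of 259 cells led by Ms4a4c, Mx1 and Ifi214. These ratios thus rest on other cells than the main ones, and the share of all genes was not computed.

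Other immune classes held less of most members. Neutrophil Ccl6 was 2.03-fold (1.89–2.17) higher in Cd226-/- and 1.92-fold (1.77–2.07) higher in WT than in naive neutrophils. Members past 1.5-fold in treated over naive neutrophils numbered 3 of 5 higher (8.55% of all genes) and 1 lower (33.4%) in Cd226-/-, and 5 of 6 higher (11.8%) and 1 lower (34.1%) in WT. The member that was lower in both was Ccl8, at 27.7 CPM in Cd226-/-, 145 in WT and 324.5 in naive neutrophils. Macrophages of the same library held far more Ccl8, and macrophage markers stood in Cd226-/-, WT and naive neutrophils at 0.798%, 0.839% and 2.02% of their macrophage level.

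Dendritic cells could be compared in Cd226-/- over naive skin. Ccl24 stood at 92.7 CPM in Cd226-/- and 9.38 in naive dendritic cells, and 2 of 8 members were higher (6.41%) and 3 lower (12%). Lymphocytes had 563 and 443 CPM of Ccl6 after treatment and 82.5 in naive skin, levels under those of macrophages and monocytes. In them 4 of 8 members in Cd226-/- (14.6%) and 6 of 8 in WT (11.8%) were higher and 1 lower in each (13.1% and 13.9%). Macrophage markers in lymphocytes stood at 2.79%, 2.77% and 3.66% of their macrophage level in Cd226-/-, WT and naive skin, and the part of free RNA in these levels was not tested. The summed markers of other classes also differed between these lymphocytes. Monocyte markers stood at 1481 CPM in Cd226-/-, 1205 in WT and 223 in naive lymphocytes, neutrophil markers at 1034, 460 and 100.2 CPM, and fibroblast markers at 491, 1244 and 39.6 CPM.

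Between genotypes, the fibroblast ligands differed by less than 1.5-fold. In Cd226-/- fibroblasts Ccl2 was 0.841 (0.823–0.860) times, Ccl7 1.23 (1.21–1.25) times, Ccl8 1.18 (1.14–1.23) times and Ccl11 1.28 (1.25–1.30) times the WT level. The count of members past 1.5-fold was nevertheless 5 of 9 higher and 0 lower, beside 6.16% and 6.42% of all genes, with a median log2 ratio of 1.02 for the members and 0.02 for all genes. The 5 were Ccl12 (4.41-fold), Ccl9 (2.62-fold), Ccr2 (2.38-fold), Ccl6 (2.27-fold) and Ccl24 (2.03-fold), which are the 5 near or below the level expected from free RNA of macrophages and monocytes.

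Part of these UMIs came from a small sub-cluster. Fibroblast sub-cluster 5, led by the myeloid genes Lyz2, S100a9 and F13a1, held 46 Cd226-/- and 12 WT cells. In Cd226-/- it supplied 52.0% of the fibroblast Ccl6 UMIs, 45.8% of Ccl9, 64.4% of Ccr2, 48.9% of Ccl24 and 39.7% of Ccl12, but 3.92% of Ccl2 and 2.05% of Ccl11. Without it 7 members kept at least 50 UMIs, and of these Ccl9 was past 1.5-fold, at 7.63 CPM in Cd226-/- and 4.39 in WT (1.74-fold, 1.44–2.10). Ccl6 was then at 1.47-fold (1.24–1.73) and Ccr2 at 1.04-fold (0.694–1.56). Ccl12 at 3.61-fold (1.83–7.63; 35 and 12 UMIs) and Ccl24 at 1.78-fold (0.899–3.60; 23 and 16 UMIs) still lay past 1.5-fold, but had too few UMIs to be counted.

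**Figure D4:**
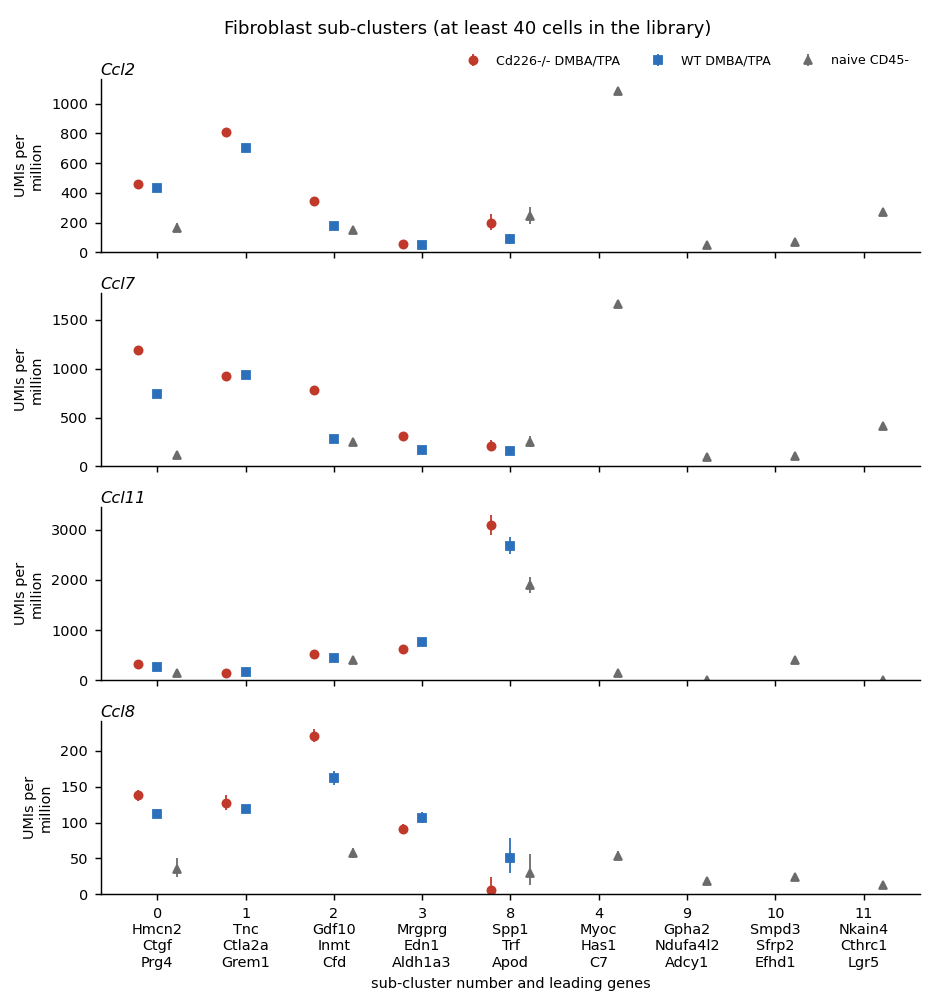
Levels of Ccl2, Ccl7, Ccl8 and Ccl11, in CPM, in fibroblast sub-clusters of Cd226-/-, WT and naive skin, with exact 95% intervals of counting error. Ccl2 is highest in treated sub-cluster 1 and naive sub-cluster 4, and Ccl11 in sub-cluster 8 of all 3 skins.

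The Ccl2 ratio depended on the mix of fibroblast sub-clusters. Sub-cluster 1, led by Tnc and Grem1, had the highest treated Ccl2 level, 809 (784–835) CPM in Cd226-/- and 704 (692–717) in WT, and held 8.15% of Cd226-/- but 28.1% of WT fibroblasts. In the WT library it supplied 62.2% of fibroblast Ccl2 UMIs, against 28.2% in Cd226-/-. Within each of the 5 sub-clusters with at least 40 cells in both libraries Ccl2 was higher in Cd226-/-, 1.06-fold (1.019–1.101) in sub-cluster 0, 1.15-fold (1.11–1.19) in 1, 1.94-fold (1.82–2.08) in 2 and 2.27-fold (1.46–3.59) in 8. In sub-cluster 3 the interval of 1.12-fold (0.980–1.27) reached equality. With the 5 sub-clusters given the same weight in both libraries, Ccl2 was 433 CPM in Cd226-/- and 359.5 in WT, 1.20-fold, so the direction of the class ratio turned.

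The Ccl7 ratio was above 1 in 4 of the 5. It was 1.61-fold (1.56–1.65) in sub-cluster 0, 2.83-fold (2.69–2.98) in sub-cluster 2, led by Gdf10 and Inmt, and 1.83-fold (1.71–1.95) in sub-cluster 3, led by Mrgprg and Edn1. In sub-cluster 1 the ratio was 0.987 (0.954–1.02), and in sub-cluster 8 the interval of 1.38-fold (0.952–2.004) reached equality. At the same weights Ccl7 was 826.5 CPM in Cd226-/- and 558 in WT, 1.48-fold. Ccl8 was 1.15-fold and Ccl11 0.991-fold at the same weights, and Ccl11 was higher in sub-clusters 0, 2 and 8 but lower in 1 (0.808) and 3 (0.819).

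The highest levels of Ccl11 and of the Ccl2 and Ccl7 pair lay in different fibroblast sub-clusters, in naive and in treated skin. Treated sub-cluster 1, highest in Ccl2, held 139 CPM of Ccl11 in Cd226-/- and 172 in WT. Treated sub-clusters 0 and 2 held Ccl11 and Ccl7 together. In naive skin sub-cluster 4, led by Myoc, Has1 and C7, stood at 1087 (1061–1113) CPM of Ccl2 and 1665 (1633–1697) of Ccl7, and held 44.99% and 44.3% of their UMIs in 9.36% of the cells. Naive Ccl11 lay mainly in sub-cluster 10 (Smpd3, Sfrp2), with 413 (404–423) CPM and 66.2% of the UMIs, and was 9.69 and 5.30 CPM in sub-clusters 9 and 11. The summed dissociation stress genes also differed between these naive sub-clusters, at 40648 CPM in 4, 10747 in 10, 26065 in 9 and 30477 in 11. Their part in these levels was not tested. In treated skin sub-cluster 3 held 632 (616–647) CPM of Ccl11 in Cd226-/- and 771 (752–791) in WT, with 58.2 and 52.2 CPM of Ccl2 and 313 and 171 CPM of Ccl7. Sub-cluster 2 held 519.5 CPM of Ccl11 and 779 of Ccl7 in Cd226-/-, and 453 and 276 CPM in WT. Sub-cluster 0 held 325 CPM of Ccl11 and 1192 of Ccl7 in Cd226-/-, and 262 and 742 CPM in WT.

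Sub-cluster 8 was small and stood apart. Its leading genes were Spp1, Trf, Apod, Angptl7 and Sox9, and it held 50 Cd226-/-, 89 WT and 83 naive cells. Ccl11 reached 3090 (2895–3295), 2680 (2518–2850) and 1895 (1744–2056) CPM there, with a UMI in 98.0%, 100% and 97.6% of the cells. It was also the sub-cluster that held Ccl9 with little Ccl6: 182, 119 and 118 CPM of Ccl9 against 3.31, 13.2 and 0 of Ccl6, and 46.2% of the Ccl9 UMIs of naive fibroblasts.

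In macrophages no member differed past 1.5-fold between Cd226-/- and WT (0 of 8 either way, beside 5.2% of all genes higher and 4.32% lower), and the median log2 ratio was -0.09 for the members and 0.03 for all genes. Ccl12 at 1.39-fold (1.298–1.496) and Ccl9 at 1.28-fold (1.24–1.32) were the highest ratios, and Ccl8 at 0.759 (0.745–0.774) and Ccl2 at 0.774 (0.730–0.820) the lowest. In monocytes Ccl6 was 1.54-fold (1.496–1.586) and Ccl9 1.58-fold (1.52–1.63) higher in Cd226-/-, 2 of 8 members, where 4.26% of all genes were higher, and 0 were lower (5.32%). Within macrophage or monocyte sub-cluster 0 (Cxcl3, Ptgs2, Il1b) these ratios were 1.42 and 1.37, and within sub-cluster 1 (Lcn2, Hp, Mmp8) 1.17 and 1.46, all under 1.5. The ratios turned to log2 values of -0.14 and -0.17 with separate clustering of each library. In that setting 712 Cd226-/- cells, of a cluster with Ccl24 and Ccl9 among its leading genes, were unnamed and not among the monocytes.

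Langerhans or mature dendritic cells held less Ccl2 and Ccl7 in Cd226-/-. Ccl2 stood at 104 CPM in Cd226-/- and 245 in WT (0.423, 0.372–0.480), Ccl7 at 122 and 275 (0.442, 0.392–0.497) and Ccl12 at 47.8 and 83.5 (0.572, 0.467–0.699). These were 3 of 8 members, beside 8.29% of all genes lower, and 0 were higher (2.15%). All 3 were lower than in the macrophages of the same library. When the libraries were clustered separately, the log2 ratio of Ccl12 was 0.052, against -0.81.

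Neutrophils of Cd226-/- skin held less of 4 of 6 measured members than WT ones (10.2% of all genes lower) and more of 0 (5.3%). Ccl8 was 0.191 (0.122–0.292), Ccl7 0.287 (0.149–0.530), Ccl9 0.482 (0.359–0.647) and Ccl2 0.666 (0.394–1.13) times the WT level, the last with an interval that reaches equality. In lymphocytes 1 of 9 members, Ccl24, was higher (5.79%) and 3, Ccl7, Ccl12 and Ccl11, were lower (3.24%), all at levels of at most 111 CPM. Summed fibroblast markers stood at 576 CPM in Cd226-/- and 1501 in WT neutrophils, and at 491 and 1244 CPM in lymphocytes, where Ccl11 was 0.414 times the WT level. Their part in these ratios was not tested.

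Levels differed widely between phagocyte sub-clusters. Ccl8 was 9722 (9588–9857) CPM in Cd226-/- and 12464 (12285–12646) in WT sub-cluster 3, 14619 (14542–14697) in naive sub-cluster 5, and 1011, 2208 and 732 CPM in sub-cluster 6 of Cd226-/-, WT and naive skin. Ccr2 stood at 397 and 456 CPM in sub-cluster 3 of Cd226-/- and WT and at 160.5 CPM in naive sub-cluster 5. In sub-cluster 6, which held less Ccl8, Ccr2 was similar to sub-cluster 3, at 342 and 491 CPM in Cd226-/- and WT. Sub-cluster 0, made up mostly of monocytes, held 1261 and 1082 CPM in Cd226-/- and WT. Ccl24 stood at 661 (640–683) CPM in Cd226-/- and 530.1 (494–569) in WT sub-cluster 0, and at 761 (744–779) in naive sub-cluster 5. Higher Ccl24 levels came from few cells, 913 CPM in 28 naive CD45+ cells of sub-cluster 3 and 1445 CPM in 69 naive CD45- cells of sub-cluster 5. So Ccl24 lay with Ccr2-low macrophages in naive skin and also with Ccr2-high cells, named monocytes here, in treated skin. That name depends on the clustering. At resolution 2 a cluster of 533 Cd226-/- and 218 WT cells, with Ccl24 and Ccl9 among its leading genes, was named macrophage.

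**Figure D5:**
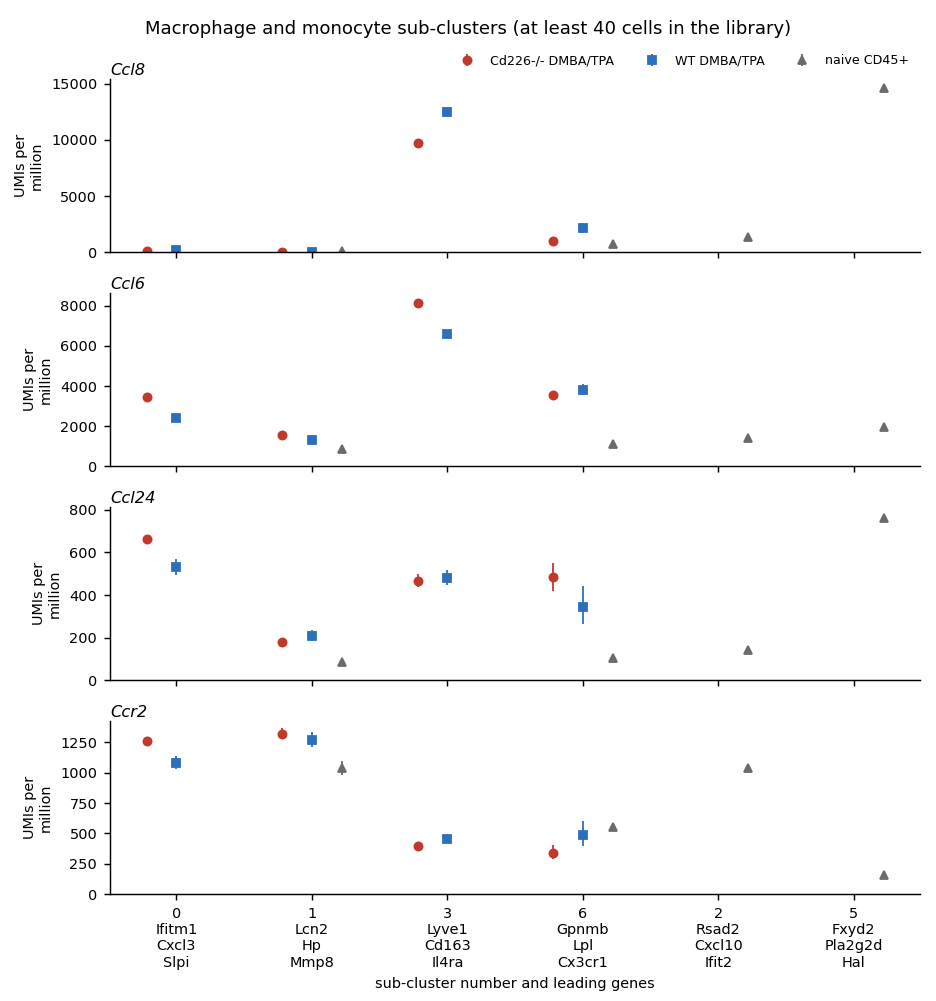
Levels of Ccl8, Ccl24, Ccl6 and Ccr2, in CPM, in macrophage and monocyte sub-clusters of Cd226-/-, WT and naive skin, with exact 95% intervals of counting error. Ccl8 is highest in sub-clusters 3 and 5, and Ccr2 in sub-clusters 0, 1 and 2.

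Ccl2 and Ccl7 were read together in single cells, each thinned to 1000 UMIs. Of fibroblasts with a Ccl2 UMI, 58.8% in Cd226-/-, 55.8% in WT and 52.9% in naive skin held a Ccl7 UMI, against 23.7%, 16.2% and 7.69% of those without. In macrophages the shares were 71.2%, 71.7% and 56.6% with Ccl2 and 37.4%, 26.9% and 15.4% without. For Ccl11 the shares lay closer together: 29.7%, 21.5% and 12.9% of fibroblasts with Ccl2 and 33.1%, 29.2% and 14.1% of those without held it. Of fibroblasts with a Ccl7 UMI, 35.0%, 25.9% and 14.5% held Ccl11, against 31.7%, 28.9% and 13.9% of those without. In naive macrophages Ccl24 was found in 37.9% (35.0–40.9) of cells with Ccl8 and 10.95% (8.46–13.9) of cells without, and Ccr2 in 10.9% (8.20–14.1) of cells with Ccl24 and 25.8% (23.3–28.5) of cells without.

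Likeness was computed over the 23 combinations of class and library with at least 100 cells. As a description, the Pearson r of log2 levels was 0.94 between Ccl2 and Ccl7, and among 6075 genes each was the other's nearest. Ccl11 was most like Pdgfra, the receptor that marks fibroblasts (r 0.99), then Medag and Lrrn4cl. Pdgfra is among the markers that name the fibroblast class, so this likeness is no separate sign of the source of Ccl11. Ccl8 was most like Folr2 (0.94), Ccl24 like F13a1 (0.96), Ccl12 like C3ar1 (0.96), Ccl6 like Itgam (0.99), Ccl9 like Fcgr2b (0.98) and Ccr2 like Fermt3 (0.98). The r between Ccl6 and Ccl9 was 0.92, and between Ccl6 and Ccl11 -0.63. The points share libraries and their free RNA.

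Genes of the surrounding pathways were read from lists of 11 to 18 genes. Of 12 receptors for cytokines known to induce these chemokines, 8 were higher and 1 lower in fibroblasts of either treated genotype than in naive fibroblasts, where 23.6% (Cd226-/-) and 19.5% (WT) of all genes were higher and 14.8% and 12.3% lower. The oncostatin M receptor Osmr was 7.81-fold and 6.32-fold, the IL-1 receptor Il1r1 4.90-fold and 3.95-fold and the IL-17 receptor Il17ra 4.07-fold and 3.32-fold higher in Cd226-/- and WT, and Csf1r was 0.174 and 0.199 times the naive level. Of 13 NF-kappaB response genes 10 and 9 were higher and 1 and 0 lower, among them the neutrophil chemokine genes Cxcl2 (24.7-fold and 19.3-fold) and Cxcl1 (11.4-fold and 9.73-fold). Il33, the gene of an alarmin made by stromal cells, stood at 382.5 CPM in Cd226-/-, 286 in WT and 42.1 in naive fibroblasts.

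In Cd226-/- against WT fibroblasts 0 of 12 receptors passed 1.5-fold, and 0 of 13 NF-kappaB genes were higher and 1 lower. Of measured STAT6 response genes, 6 of 9 were higher and 0 lower in Cd226-/- fibroblasts than in naive ones. In WT fibroblasts 4 of 8 were higher and 1 lower. All genes gave 23.6% and 19.5% higher, and 14.8% and 12.3% lower, in these comparisons. The summed level of the list was 691 CPM in Cd226-/-, 1274 in WT and 743 in naive fibroblasts. The part of free RNA in these counts was not tested. Macrophages of either treated genotype had 5 of 13 NF-kappaB genes and 7 of 9 measured STAT6 response genes higher than naive ones. Of 9 measured receptors 3 were higher and 3 lower in Cd226-/- macrophages, and 1 higher and 2 lower in WT macrophages. Of all genes in macrophages, 9.92% (Cd226-/-) and 8.06% (WT) were higher and 16.7% and 14.7% lower, and the difference between the classes was not tested. Il4ra, the receptor chain for IL-4 and IL-13 upstream of STAT6, stood at 988 and 642 CPM in Cd226-/- and WT macrophages and 101 in naive ones. Ccr1, the receptor for the CCL6 and CCL9 group, stood at 233 and 279 CPM in treated and 51.9 in naive macrophages. Ackr1, an atypical receptor that binds many inflammatory chemokines, was read in fibroblasts at 114 CPM in Cd226-/-, 96.4 in WT and 58.6 in naive skin.

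The other lists gave these counts in Cd226-/- against WT fibroblasts, where 6.16% of all genes were higher and 6.42% lower. Of 8 measured genes of other CC chemokines 3 were higher and 3 lower, and of 8 of other chemokine receptors 4 were higher and 1 lower. Inducing cytokines had 4 of 8 higher and 0 lower and STAT6 response genes 4 of 9 higher and 2 lower. Dissociation stress genes had 2 of 18 higher and 1 lower. In Cd226-/- skin the median log2 ratio of fibroblasts over macrophages was -4.38 for inducing cytokines. It was -3.68 for STAT6 response genes and -3.48 for other CC chemokines. The part of free RNA and of sub-cluster 5, with 46 Cd226-/- and 12 WT cells, in these counts was not tested. Ccl19, a ligand of CCR7, was 10.5 CPM in Cd226-/- and 33.5 in WT fibroblasts (0.313, 0.279–0.350).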

How the data were processed

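Transcripts of sorted skin cells were measured with the 10x v3.1 kit for 3′ ends, 1 library per group. The authors deposited UMI counts per gene and cell barcode, made with Cell Ranger 3.1.0 on mm10 per the submitters' processing notes; the counts are not normalized. The libraries held 7991 (Cd226-/-), 8527 (WT), 5913 (naive CD45+) and 11875 (naive CD45-) barcodes with 71245703, 72606822, 42043869 and 81406730 gene UMIs. Barcodes with fewer than 500 genes or 1000 UMIs, or over 10% mitochondrial UMIs, were left out, as were doublets marked by Scrublet (expected rate 0.06, automatic threshold), which left out 161, 190, 19 and 603 cells. In the naive CD45+ library it marked 0.541% of cells.

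The 4 libraries were clustered together with scanpy 1.11.5 and igraph 0.11.9 (also scikit-learn 1.9.0, anndata 0.12.19, pandas 2.3.3, scipy 1.17.1, numpy 2.4.6 and matplotlib 3.10.9, under Python 3.11.15) on 2000 variable genes without the members, 30 principal components and 15 neighbours, at resolution 1, and at 0.4 within a class. Clusters were named from marker lists, and the thresholds for naming were set after the clusters were seen. A class needed 100 cells in a library. UMIs were summed per class and library and given as CPM, per class total. Levels carry exact Poisson, ratios exact conditional binomial and shares exact binomial 95% intervals. The count floor was 3 UMIs, and cells were thinned to 1000 UMIs for shares. The ratio calculation was tested on simulated data. Levels of single genes rest on 3′ ends, and reads that match near-identical copies could be split by the counting.

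The members and gene lists were chosen with earlier results of these data known. The text names all 10 members; for each, genes from the 3 with the highest Pearson r of log2 (level + 10), among genes reaching 50 CPM, without Gm, Rik, mitochondrial and ribosomal genes; and from each list up to 4 genes per comparison past 1.5-fold with the interval bound farthest from equality. Cd226 is named as the targeted gene, and eosinophil markers from their list. Alternatives covered clustering, filters, doublets, weighting of cells, the fold and the UMI minimum. Protein sequences and the surface CD45 tag were not used here.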

Additional observations from a re-analysis of the deposited data

Results flagged for a closer look

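Some members differed in direction between classes under the same contrast, with intervals of counting error on opposite sides of equality; with 1 library per group none of these differences was tested. Ccl12 in Cd226-/- over WT had a log2 ratio of 2.14 in fibroblasts, where its Cd226-/- level is near that expected from free RNA, and -0.81 in Langerhans or mature dendritic cells, where it turned to 0.052 with each library clustered on its own.

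For treated over naive skin, the log2 ratio of Ccl2 was 0.80 (Cd226-/-) and 1.05 (WT) in fibroblasts, 0.74 and 1.11 in macrophages, and -0.72 and -0.88 in monocytes. Ccl12 had 1.84 and 1.36 in macrophages and -1.89 and -2.34 in monocytes. Ccl8 had 2.59 and 2.34 in fibroblasts and -0.998 and -0.714 in monocytes. Naive monocytes of the interferon-led sub-cluster 2 carry much of the naive Ccl2 and Ccl12 level, as the monocyte values without them show. Without these naive cells Ccl8 was 0.745 (0.656–0.847) times the naive level in Cd226-/- monocytes. In WT monocytes it was 0.907 (0.784–1.05) times, so neither passed 1.5-fold. The fibroblast contrast of Ccl8 also depends on which naive library is used, as given above.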

How the results depend on the processing

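No paired analysis was possible because each group is 1 library. Of the member counts recomputed under the alternatives 263 stayed within 1.5 times and 31 moved. Among the log2 ratios of single members 710 stayed, 416 moved and 12 reversed. Only ratios past 1.5-fold in the main setting could be called reversed. A smaller ratio that changed sign was counted as moved or, inside its main interval, as stayed. Ccl2 in Cd226-/- over WT fibroblasts at the same sub-cluster weights is such a case, counted as moved. The cause was not tested except where the alternative's construction shows it. Shares of all genes were not computed under the alternatives, so the counts below have none beside them.

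In Cd226-/- over WT fibroblasts the 5 higher members fell to 1 without the mixed sub-cluster, where Ccl12 (3.61-fold) and Ccl24 (1.78-fold) had under 50 UMIs and were not counted. At the same sub-cluster weights 1 was higher, Ccl9 at 1.61-fold. That setting used only sub-clusters with at least 40 cells in both libraries, so it left out the mixed sub-cluster too. Ccl12 and Ccl24 again had under 50 UMIs and were not counted, so the 2 settings are not separate checks. In WT over naive fibroblasts 1 member in place of 0 was lower at resolution 0.5, with each library clustered alone, with the members kept in the clustering, without the highest 5% of doublet scores, without the richest cell, and without the mixed sub-cluster. In macrophages with each library clustered alone, 3 were higher and 1 lower in Cd226-/- over WT, and 2 lower in WT over naive; at resolution 2 or with at least 20 UMIs, 1 was lower in Cd226-/- over WT and 1 in Cd226-/- over naive, each against 0.

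In monocytes of Cd226-/- over WT, 0 in place of 2 members were higher with each library alone or a fold of 2, and 4 were lower with each library alone and 1 with the members kept in, each cell weighted equally or at least 20 UMIs. In Cd226-/- over naive monocytes, 0 in place of 3 were higher with each library alone and 6 without naive sub-cluster 2, and in place of 3 lower there were 1 with the members kept in or a fold of 2 and 0 without sub-cluster 2. In WT over naive monocytes, 2 in place of 1 were higher with at least 20 UMIs or without sub-cluster 2, and in place of 4 lower there were 0 with the members kept in or without sub-cluster 2 and 1 with a fold of 2.

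The reversed log2 ratios were -0.30 for Ccl24 in Cd226-/- over naive fibroblasts without the mixed sub-cluster. With each library alone they were -0.14 (Ccl6) and -0.17 (Ccl9) in Cd226-/- over WT monocytes, -0.0567 for Ccl9 in Cd226-/- over naive monocytes, and 0.052 for Ccl12 in Cd226-/- over WT Langerhans or mature dendritic cells. Without naive sub-cluster 2 they were 0.61 (Ccl2) and 0.81 (Ccl12) in Cd226-/- over naive and 0.45 (Ccl2), 0.58 (Ccl7) and 0.35 (Ccl12) in WT over naive monocytes. With the members kept in they were 0.36 for Ccl12 in Cd226-/- over naive and 0.45 for Ccl7 in WT over naive monocytes. Leaving out mixed sub-clusters or naive sub-cluster 2 and the same weights were chosen after seeing the data. With each library alone, 712 Cd226-/- cells of a monocyte-like cluster were unnamed, which takes them out of the monocyte values of that setting. Spread between mice is unknown, and depth limits fibroblast Ccl12, Ccl24 and all Ccr3 values.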
